A study of Mus musculus with 10 samples.

Results

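A set of 54 genes of fatty acid oxidation and the peroxisome was examined in the kidney cortex of 10 mice, and all 54 were among the 21792 Ensembl genes with a deposited value. The genes were taken as a list of symbols, chosen with earlier results of these data known. The list covers 5 regulators, 6 genes of uptake and binding, 8 acyl-CoA synthetases and thioesterases, 5 genes of the carnitine shuttle, 14 of mitochondrial beta-oxidation, 3 of electron transfer and 13 of the peroxisome. The mice came from a study of HDAC9 in kidney fibrosis and had the genotype WT. The labels give no strain, sex or age. For the model used here the study's methods give male C57BL/6 mice with an age of 8 weeks. The 4 sham mice received PBS, and the 6 mice with aristolochic acid nephropathy (AAN) received aristolochic acid in PBS at 5 mg/kg as a single intraperitoneal dose. Kidneys were taken at day 28, and each library is 1 mouse. AAN is a toxic model of tubular injury, and whole cortex RNA mixes all cell types of the tissue. Values are fragments per kilobase of gene model, scaled to library depth (FPKM). Sham values are given below in the order of the mice B607, B634, B636 and H249, and AAN values as the lowest, the highest and the median of 6 mice.

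Fatty acid oxidation is the main source of ATP in the proximal tubule, which has little capacity for glycolysis. Fatty acids are taken up, activated to acyl-CoA, carried into mitochondria as carnitine esters and shortened there by repeated cycles of dehydrogenation, hydration, renewed dehydrogenation and thiolysis. Peroxisomes, which are abundant in the same cells, run a parallel pathway for very long, branched and dicarboxylic acyl chains and hand shortened products to mitochondria. The nuclear receptor PPARA, with the coactivator PGC-1 alpha (Ppargc1a), drives the transcription of many genes of both pathways.

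AAN was set against sham with limma on log2(FPKM + 0.1). The mean over all mice had to reach 0.1 FPKM, which left 17129 genes and all 54 of the set. A gene is called lower or higher here at an adjusted p of at most 0.05 over all genes tested and a change of at least 2-fold. The FPKM totals differed in composition. Mitochondrially encoded genes took 39.5% to 61.4% of the sham totals and 21.4% to 55.0% of the AAN totals, and the median log2 fold change of all genes tested was 0.75. After rescaling by the median of ratios this median was 0.05. Whether a gene is called, and the direction of a small change, therefore depended on the scaling, and the value after the median of ratios is given for each gene of the set whose call or sign it changed. Sham libraries held 15.8 to 17.5 M fragments and AAN libraries 13.4 to 16.5 M. No batch is given in the labels.

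In AAN mice, 20 of the 54 genes were called lower and 4 were called higher. Over all genes tested the call was lower for 3.43% and higher for 35.8%. The genes that fell span activation (Acsm3, Acsm2, Acsl1), the shuttle (Cpt2), the mitochondrial spiral (Acadm, Acaa2), electron transfer (Etfa, Etfb) and the peroxisome (Ehhadh, Acaa1b, Cat), and those that rose were Pparg, Fabp4, Acsl5 and Abcd2. The median log2 fold change of the set was -0.79, against 0.75 for all genes, and 46 of 54 values were below 0. In whole cortex RNA, fewer cells of a type and less RNA per cell cannot be told apart. After the median of ratios, 37 of the 54 were called lower, where 10.7% of all genes were, and 2 were called higher, where 18.8% of all genes were. All 20 genes called lower in the values as deposited were among these 37. The 2 that stayed higher were Pparg and Abcd2. With all mice set to the same FPKM total instead, which moved the median of all genes to 1.07, 11 of the 54 were called lower and 4 higher. The median of the set was -1.54 after the median of ratios and -0.44 at the same total. The levels of the groups did not overlap in 17 genes that were lower in AAN (3.25% of all genes tested) and in 5 that were higher (40.3% of all genes tested).

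**Figure D1:**
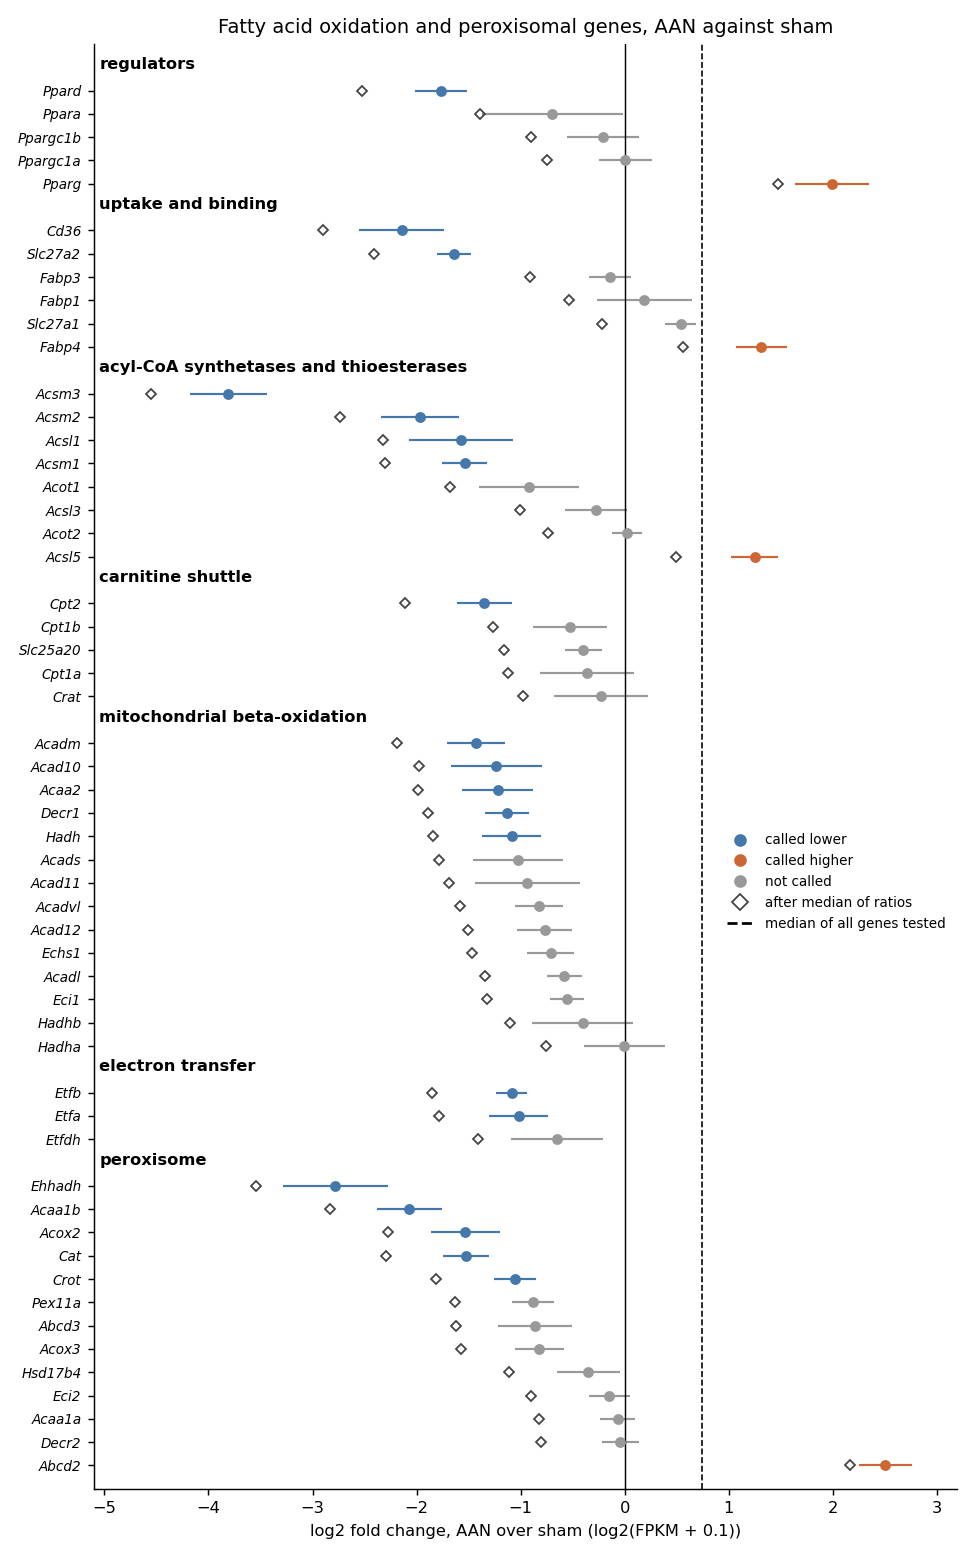
Log2 fold change (AAN over sham, on log2(FPKM + 0.1)) of the 54 genes by role, with circles for the values as deposited, bars for 1 standard error and diamonds for the values after the median of ratios. The dashed line is the median of all genes tested, 0.75, and 20 circles are called lower and 4 higher.

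The share of called genes was larger at higher levels. With a mean over the 10 mice of 50 FPKM or more, 9 of 13 genes were called lower, and 132 of the 795 genes of the whole table at this level were (16.6%). Between 10 and 50 FPKM, 8 of 21 were called lower, where 5.94% of all genes were. Under 10 FPKM, 3 of 20 were, where 2.09% of all genes were. The median log2 fold changes of the set at these levels were -1.08, -0.86 and -0.46, against -0.008, 0.47 and 0.83 for all genes.

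Of the 5 regulators, 1 was called lower (Ppard), 1 higher (Pparg) and 3 neither, where 3.43% of all genes were called lower and 35.8% higher. Ppara (ENSMUSG00000022383, chr15:85734983-85802819 on GRCm38, plus strand) was at 6.24, 1.02, 0.863 and 1.09 FPKM in the sham mice and 0.415 to 5.24 FPKM in the AAN mice (median 0.673). The sham mouse B607 and the AAN mouse B614 were far above the rest of their groups, and the groups overlapped (log2 fold change -0.69, standard error 0.68, adjusted p = 0.387 from limma). Without both of these mice Ppara was at 0.863 to 1.09 FPKM in sham and 0.415 to 1.099 FPKM in AAN mice. Ppard, the broadly expressed member of the same receptor family, fell. Its level was 18.7, 8.02, 14.6 and 20.1 FPKM in the sham mice and 3.33 to 5.27 FPKM in the AAN mice (median 4.097), with no overlap (log2 fold change -1.77, standard error 0.25, adjusted p = 9.30e-05 from limma). Pparg, the receptor best known from adipocytes and macrophages, rose. It was at 0.207, 0.0152, 0.293 and 0.336 FPKM in the sham mice and 0.737 to 1.37 FPKM in the AAN mice (median 1.01), and every AAN mouse was above every sham mouse (log2 fold change 1.99, standard error 0.36, adjusted p = 0.000522 from limma). The sham values stand for at most 16.4 fragments, and the log2 fold change was 0.74 with a pseudocount of 1, under the 2-fold limit, and 1.47 after the median of ratios. With quantile normalization Pparg lost the call (0.77, adjusted p = 0.0879 from limma).

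The coactivators did not pass the test in the values as deposited. Ppargc1a was at 6.47, 4.25, 4.65 and 4.81 FPKM in the sham mice and 3.54 to 9.57 FPKM in the AAN mice (median 4.62), and the groups overlapped (log2 fold change 0.0075, standard error 0.25, adjusted p = 0.981 from limma). Its value was -0.74 after the median of ratios (adjusted p = 0.0215 from limma), so its sign depends on the scaling. Ppargc1b, its close relative, was at 0.692 to 1.96 FPKM in sham and 0.678 to 2.17 FPKM in AAN mice (log2 fold change -0.21). After the median of ratios Ppargc1b was at -0.90, under 2-fold (adjusted p = 0.0381 from limma). With quantile normalization it was called lower (-1.32, adjusted p = 0.00649 from limma). In B614 both coactivators and Ppara were the highest of the AAN mice.

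**Figure D2:**
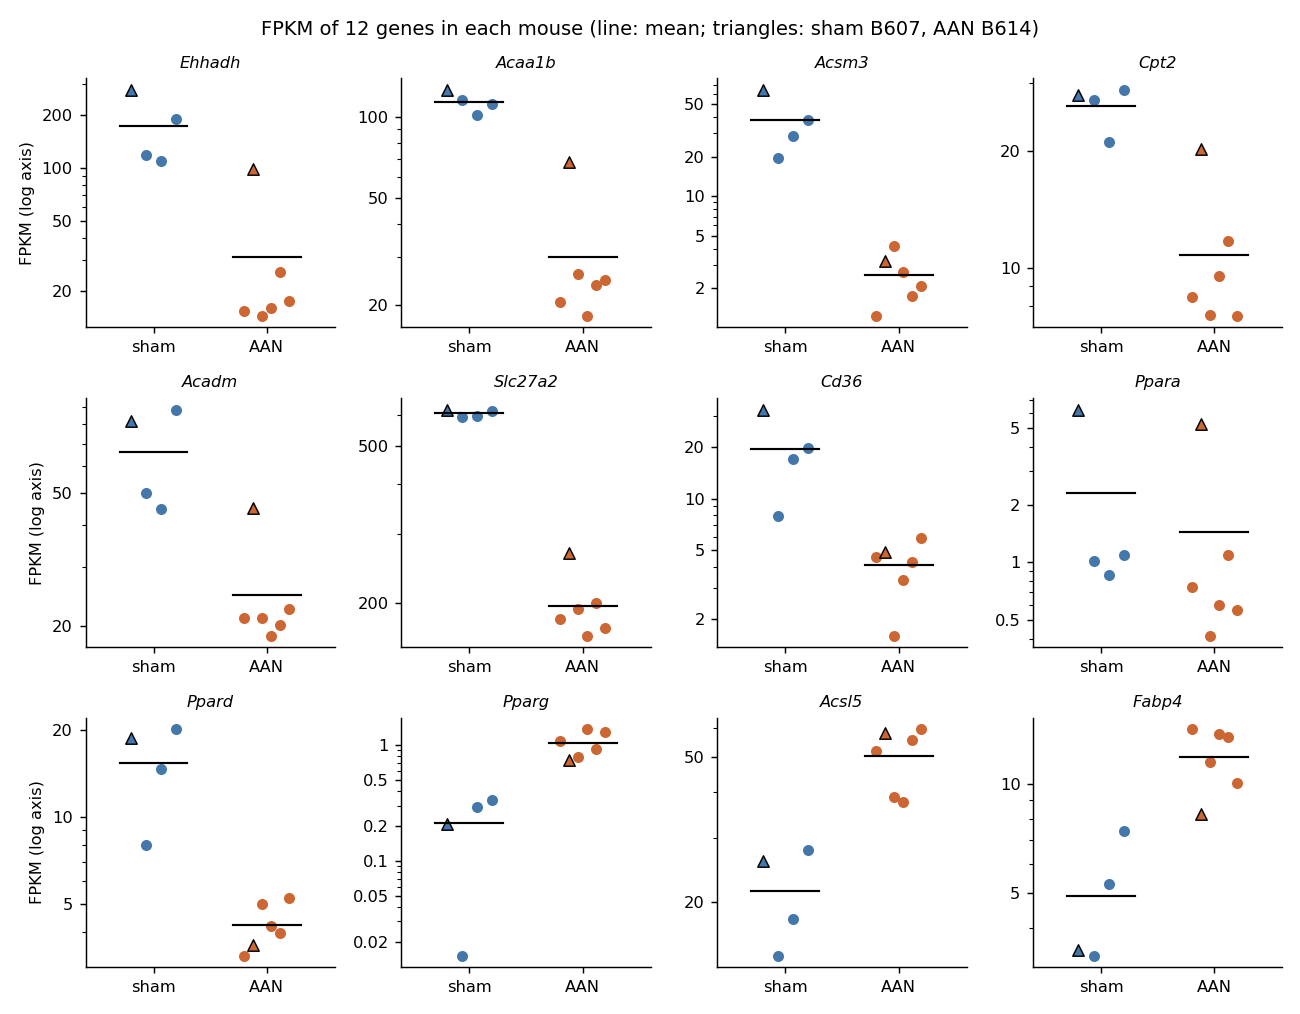
FPKM of 12 genes in each of the 4 sham and 6 AAN mice, on log axes, with a line at the mean of each group and triangles for the sham mouse B607 and the AAN mouse B614. In Slc27a2 all sham mice lie between 592 and 620.2 FPKM, while in Ppara the triangles stand apart from the other mice of both groups.

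Among the genes of uptake and binding, the proximal tubule transporter and the scavenger receptor fell. Slc27a2, a very long chain acyl-CoA synthetase that also imports fatty acids (FATP2), had the highest level of the whole set in sham mice. It was at 620.2, 592, 599 and 615 FPKM in the sham mice and 165 to 267 FPKM in the AAN mice (median 188), a narrow range in sham and no overlap (log2 fold change -1.64, standard error 0.16, adjusted p = 5.47e-06 from limma). Cd36, a fatty acid translocase and scavenger receptor, was at 32.9, 7.89, 17.00 and 19.6 FPKM in the sham mice and 1.59 to 5.87 FPKM in the AAN mice (median 4.42). Every AAN mouse was below every sham mouse (log2 fold change -2.14, standard error 0.40, adjusted p = 0.000740 from limma). Slc27a1, the paralog of Slc27a2 known from muscle and fat, was at 14.1, 17.2, 18.4 and 18.4 FPKM in the sham mice and 20.6 to 28.3 FPKM in the AAN mice (median 25.8). The groups did not overlap and the adjusted p passed (log2 fold change 0.54, standard error 0.15, adjusted p = 0.00822 from limma), but the change was under 2-fold and became -0.22 after the median of ratios.

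The binding proteins carry fatty acids through the cytosol, and they differed in response. Fabp4, the form of adipocytes that capillary endothelium and macrophages also make, rose. It was at 3.46, 3.35, 5.296 and 7.42 FPKM in the sham mice and 8.26 to 14.1 FPKM in the AAN mice (median 12.5), and all 6 AAN mice were above the sham mice (log2 fold change 1.31, standard error 0.24, adjusted p = 0.000691 from limma). After the median of ratios its value was 0.56 (adjusted p = 0.0738 from limma), which is not a call. Fabp3, the heart form, was at 62.9, 68.5, 83.5 and 95.6 FPKM in the sham mice and 52.7 to 93.95 FPKM in the AAN mice (median 68.2), with overlap (log2 fold change -0.14, standard error 0.20, adjusted p = 0.549 from limma). Fabp1, the liver form, was at 1.14, 1.94, 1.65 and 3.18 FPKM in the sham mice and 0.549 to 3.66 FPKM in the AAN mice (median 2.71) and did not pass the test (log2 fold change 0.19, standard error 0.45, adjusted p = 0.727 from limma). Fabp1 has 1 annotated transcript, and its values stand for 11 to 29 fragments in sham and 5 to 33 in AAN mice. With a standard error of 0.45 a modest difference would not be seen. Counting error was not separated from the spread between mice. The sign of Fabp1 turned to -0.53 after the median of ratios.

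Adipocyte and muscle genes were low in all mice. Of the adipocyte markers, Adipoq reached at most 0.199 FPKM and Plin1 at most 0.0298 FPKM in any mouse, and the summed level of the 8 markers measured was 0.146 to 0.510 FPKM in sham and 0.291 to 1.75 FPKM in AAN mice. The sum of 6 muscle markers was 0.0510 to 0.198 FPKM in sham and 0.507 to 1.52 FPKM in AAN mice, without overlap. Of the markers that reached the filter, 1 of 1 for adipocytes and 2 of 3 for muscle were called higher, where 35.8% of all genes were. Macrophage genes moved with Pparg and Fabp4: all 8 listed markers were called higher, where 35.8% of all genes were. The sum of these macrophage markers was 37.9 to 60.8 FPKM in sham and 624 to 2149 FPKM in AAN mice. Of 8 endothelial markers, 0 were called by limma in either direction, where 3.43% of all genes were called lower and 35.8% higher. Without the fold limit, 4 of the 8 were higher at an unadjusted p under 0.05 and 3 at an adjusted p of at most 0.05. Of the 17129 genes tested, 10103 and 9482 were higher at these limits. The endothelial sums were 76.1 to 120.2 FPKM in sham and 133 to 154 FPKM in AAN mice. The part of these cell types in the rise of Pparg and Fabp4 was not tested.

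Activation of fatty acids to acyl-CoA held the deepest decrease of the set. Acsm3, a medium-chain acyl-CoA synthetase of the mitochondrial matrix (ENSMUSG00000030935, chr7:119760923-119787513), was at 64.2, 19.4, 28.8 and 38.1 FPKM in the sham mice and 1.24 to 4.23 FPKM in the AAN mice (median 2.38). The lowest sham mouse was above the highest AAN mouse (log2 fold change -3.81, standard error 0.37, adjusted p = 4.29e-06 from limma). Acsm2, of the same family, was at 313, 123, 154 and 203 FPKM in the sham mice and 30.2 to 122 FPKM in the AAN mice (median 40.98). The nearest mice of the groups, sham B634 and AAN B614, were at 123 and 122 FPKM (log2 fold change -1.97, standard error 0.38, adjusted p = 0.000832 from limma). Acsm1 was at 80.5, 58.9, 82.8 and 80.5 FPKM in the sham mice and 18.3 to 37.2 FPKM in the AAN mice (median 26.7), without overlap (log2 fold change -1.54, standard error 0.22, adjusted p = 8.88e-05 from limma). The paralogs Acsm1, Acsm2 and Acsm3 lie beside each other on chromosome 7, and how fragments of like sequence were divided between them is not given in the sources used here.

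The long-chain synthetases split. Acsl1, the form tied to oxidation in many tissues, was at 19.8, 12.6, 14.5 and 20.1 FPKM in the sham mice and 1.88 to 20.1 FPKM in the AAN mice (median 5.29). It was called lower (log2 fold change -1.57, standard error 0.50, adjusted p = 0.0175 from limma), although B614 lay within the sham range. The other 5 AAN mice were at 1.88 to 7.56 FPKM. Without B614 the log2 fold change was -1.95. Acsl5, a synthetase of mitochondrial and endoplasmic reticulum membranes, rose. It was at 25.9, 14.3, 18.01 and 27.7 FPKM in the sham mice and 37.7 to 59.6 FPKM in the AAN mice (median 53.8), and the groups did not overlap (log2 fold change 1.25, standard error 0.22, adjusted p = 0.000510 from limma). Under the median of ratios the value was 0.49 (adjusted p = 0.0273 from limma), above 0 and under 2-fold. Acsl3, found on lipid droplets, was at 2.05 to 4.598 FPKM in sham and 1.68 to 4.299 FPKM in AAN mice and did not pass the test. The thioesterases reverse activation by releasing free fatty acid. Acot1, the cytosolic form and a PPARA target, was at 44.8, 15.02, 12.2 and 32.6 FPKM in the sham mice and 5.71 to 30.7 FPKM in the AAN mice (median 13.4), with overlap (log2 fold change -0.92, standard error 0.48, adjusted p = 0.118 from limma). Acot2, its mitochondrial neighbour, was at 9.91, 12.1, 9.49 and 10.7 FPKM in the sham mice and 8.75 to 11.8 FPKM in the AAN mice (median 10.8), with overlapping groups (log2 fold change 0.023, standard error 0.14, adjusted p = 0.896 from limma). Acsl3 and Acot1 were called lower after the median of ratios, at -1.01 and -1.68, and Acot2 was at -0.73, under 2-fold. Near-identical sequence makes the division of fragments between Acot1 and Acot2 uncertain.

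In the carnitine shuttle, 1 of 5 genes was called lower, where 3.43% of all genes were. Cpt2, which re-forms acyl-CoA on the matrix side, was at 27.8, 27.03, 21.2 and 28.8 FPKM in the sham mice and 7.55 to 20.2 FPKM in the AAN mice (median 9.002). Every AAN mouse was below every sham mouse (log2 fold change -1.35, standard error 0.26, adjusted p = 0.000919 from limma). Cpt1a, the liver form of the enzyme that commits acyl chains to the shuttle, was at 129, 41.6, 44.8 and 63.5 FPKM in the sham mice and 24.6 to 142 FPKM in the AAN mice (median 43.1). The range in AAN covered the whole sham range through B614, and the test was not passed (log2 fold change -0.36, standard error 0.45, adjusted p = 0.502 from limma). Without B614 the log2 fold change of Cpt1a was -0.67 (adjusted p = 0.110 from limma), without B607 -0.011 (adjusted p = 0.984 from limma), and after the median of ratios -1.12, a call. The carrier Slc25a20, which exchanges acylcarnitine for carnitine, was at 10.6 to 13.7 FPKM in sham and 6.597 to 11.8 FPKM in AAN mice (log2 fold change -0.40, adjusted p = 0.0740 from limma). Cpt1b, the muscle form, was at 3.18 to 6.65 FPKM in sham and 2.11 to 6.94 FPKM in AAN mice, and Crat, which makes acetylcarnitine, at 2.202 to 13.2 FPKM in sham and 4.31 to 11.4 FPKM in AAN mice. Neither passed the test. Slc25a20 (-1.15) and Cpt1b (-1.27) were also called lower after the median of ratios.

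All 14 genes of mitochondrial beta-oxidation had a log2 fold change below 0, 10 of them passed the adjusted p, and 5 were also at least 2-fold lower. Of the 17129 genes tested, 3034 were below 0, 1027 of them passed the adjusted p, and 3.43% were called lower. After the median of ratios 12 of the 14 were called lower, where 10.7% of all genes were. The 7 that gained the call were Acadl (-1.34), Acadvl (-1.58), Acads (-1.79), Acad11 (-1.69), Acad12 (-1.51), Echs1 (-1.47) and Eci1 (-1.32). As deposited, the log2 fold changes ran from -1.43 for Acadm to -0.0033 for Hadha. The acyl-CoA dehydrogenases, which open each cycle, differ in the chain length they accept. Acadm, for medium chains, was at 81.8, 50.02, 44.7 and 88.6 FPKM in the sham mice and 18.7 to 44.9 FPKM in the AAN mice (median 21.1), where B614 alone reached the lowest sham mouse (log2 fold change -1.43, standard error 0.28, adjusted p = 0.000946 from limma). Acadl, for long chains, was at 145, 104, 111 and 144 FPKM in the sham mice and 67.6 to 101 FPKM in the AAN mice (median 84.2), with no overlap and a change under 2-fold (log2 fold change -0.58, standard error 0.17, adjusted p = 0.0101 from limma). Acadvl, for very long chains, was at 62.4, 38.02, 48.6 and 61.1 FPKM in the sham mice and 22.3 to 47.8 FPKM in the AAN mice (median 28.1) (log2 fold change -0.82, standard error 0.23, adjusted p = 0.00890 from limma). The short-chain enzyme Acads was at 64.9, 21.8, 29.3 and 51.2 FPKM in the sham mice and 9.37 to 38.4 FPKM in the AAN mice (median 22.1). Acads was more than 2-fold lower but missed the adjusted limit (log2 fold change -1.03, standard error 0.43, adjusted p = 0.0558 from limma), with -1.23 without B614 (adjusted p = 0.0206 from limma) and -0.77 without B607 (adjusted p = 0.157 from limma).

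The less characterised dehydrogenases Acad10 and Acad12 are neighbours on chromosome 5. Acad10 was called lower (log2 fold change -1.23, standard error 0.44, adjusted p = 0.0298 from limma) with 2.88 to 13.1 FPKM in sham and 1.47 to 6.51 FPKM in AAN mice. It lost the call when any of the mice B607, H249, B630 or B639 was left out, with a log2 fold change of -0.86 without B607. Acad12 passed the adjusted p under 2-fold (-0.77), and Acad11 did not pass (-0.93, adjusted p = 0.127 from limma). The later steps followed the same direction. Hadh, the short and medium chain hydroxyacyl-CoA dehydrogenase, was at 102, 52.3, 61.6 and 83.9 FPKM in the sham mice and 22.9 to 61.7 FPKM in the AAN mice (median 35.05) (log2 fold change -1.08, standard error 0.28, adjusted p = 0.00586 from limma). Acaa2, the mitochondrial thiolase, was at 174, 121, 149 and 180.1 FPKM in the sham mice and 43.02 to 174 FPKM in the AAN mice (median 57.5), with 5 AAN mice at 71.1 FPKM or less and B614 within the sham range (log2 fold change -1.22, standard error 0.34, adjusted p = 0.00863 from limma). Decr1, a reductase needed for polyunsaturated chains, was at 52.6, 47.1, 44.8 and 53.8 FPKM in the sham mice and 16.1 to 35.6 FPKM in the AAN mice (median 21.9), without overlap (log2 fold change -1.13, standard error 0.21, adjusted p = 0.000779 from limma). Hadh was under 2-fold without B607, B630 or B639, at -0.92 in the first case. The hydratase Echs1 (-0.71) and the isomerase Eci1 (-0.56) passed the adjusted p with changes under 2-fold. The groups of Eci1 did not overlap, at 70.2 to 93.7 FPKM in sham and 42.1 to 65.9 FPKM in AAN mice.

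The trifunctional protein of the inner membrane, which carries out the later steps on long chains, did not share the called decrease in the values as deposited. Its alpha subunit Hadha was at 18.9, 6.17, 7.11 and 13.2 FPKM in the sham mice and 6.09 to 21.2 FPKM in the AAN mice (median 10.6), with B614 highest of all mice (log2 fold change -0.0033, standard error 0.39, adjusted p = 0.994 from limma). Its beta subunit Hadhb was at 4.16, 0.997, 0.732 and 1.54 FPKM in the sham mice and 0.560 to 2.98 FPKM in the AAN mice (median 1.09) (log2 fold change -0.40, standard error 0.49, adjusted p = 0.483 from limma). Hadha and Hadhb start within 85 bases of each other on opposite strands of chromosome 5. Hadha had a log2 fold change of -0.76 after the median of ratios, and 0.36 when all mice were set to the same FPKM total. Hadhb was at -1.11 after the median of ratios, not a call (adjusted p = 0.0655 from limma). With quantile normalization Hadhb was called lower (-1.46, adjusted p = 0.0200 from limma).

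Electron transfer flavoprotein takes the electrons of the acyl-CoA dehydrogenases, and both of its subunits were called lower. Etfb was at 132, 172, 182 and 184 FPKM in the sham mice and 67.5 to 85.5 FPKM in the AAN mice (median 80.6), without overlap (log2 fold change -1.08, standard error 0.15, adjusted p = 7.10e-05 from limma). Etfa was at 104, 67.1, 88.6 and 113 FPKM in the sham mice and 28.1 to 82.7 FPKM in the AAN mice (median 46.9), with B614 inside the sham range (log2 fold change -1.02, standard error 0.28, adjusted p = 0.00833 from limma). The call of Etfa is at the 2-fold limit. It was lost without B607, H249, B630 or B639, with a log2 fold change of -0.88 without B630. Etfdh, the oxidoreductase that passes these electrons to ubiquinone, was at 21.7, 5.79, 7.33 and 13.4 FPKM in the sham mice and 3.57 to 15.8 FPKM in the AAN mice (median 6.93), with overlap (log2 fold change -0.65, standard error 0.44, adjusted p = 0.219 from limma). It was called lower after the median of ratios (-1.41).

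**Figure D3:**
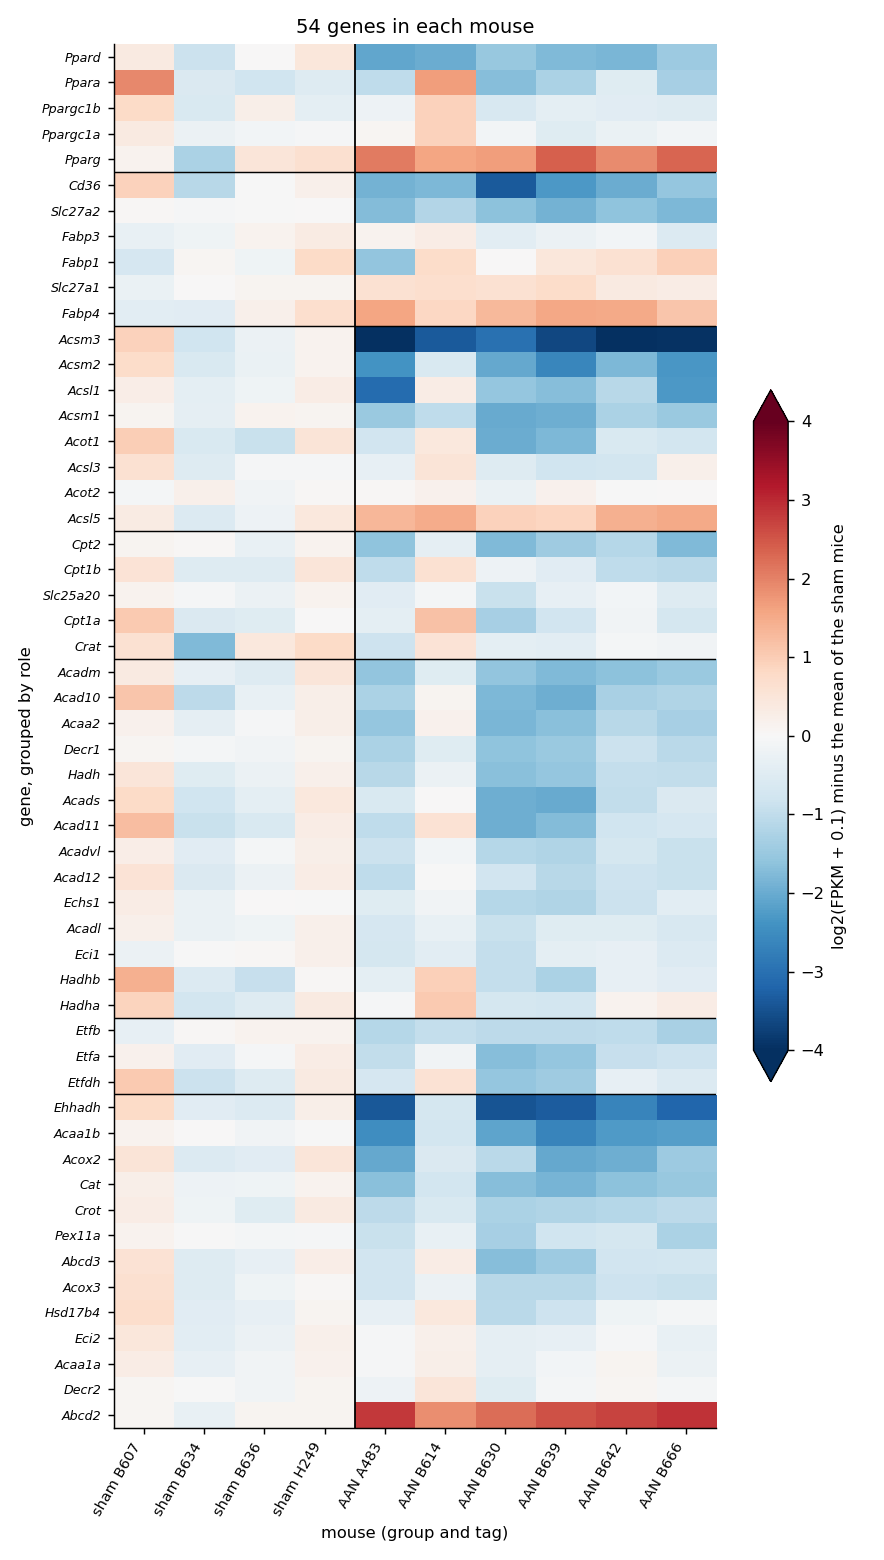
Log2(FPKM + 0.1) of the 54 genes in each of the 10 mice, minus the mean of the sham mice, with genes in rows grouped by role and mice in columns. Blue is below and red above the sham mean, and the AAN mouse B614 is paler in many rows that are blue in the other 5 AAN mice.

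In the peroxisome, 5 of 13 genes were called lower and 1 higher, where 3.43% and 35.8% of all genes were. The bifunctional enzyme Ehhadh, which performs the hydratase and dehydrogenase steps on straight and dicarboxylic chains and is a classic PPARA target, was at 277, 119, 109 and 188 FPKM in the sham mice and 14.5 to 98.4 FPKM in the AAN mice (median 16.9). It has 1 transcript, so these values are 5369.7 to 14465 fragments in sham and 645 to 4608 in AAN mice. The groups did not overlap (log2 fold change -2.78, standard error 0.50, adjusted p = 0.000553 from limma), and without B614 the 5 other AAN mice were at 14.5 to 25.9 FPKM. Acaa1b, a peroxisomal thiolase, was at 126, 116, 102 and 112 FPKM in the sham mice and 18.1 to 68.04 FPKM in the AAN mice (median 24.2) and likewise fell in every AAN mouse (log2 fold change -2.07, standard error 0.31, adjusted p = 0.000147 from limma). Its paralog Acaa1a was at 18.1, 11.7, 13.4 and 16.5 FPKM in the sham mice and 11.5 to 17.3 FPKM in the AAN mice (median 14.02), with full overlap (log2 fold change -0.068, standard error 0.17, adjusted p = 0.744 from limma).

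Upstream sequences are given for 4 genes. Acaa1a and Acaa1b were chosen because they diverged, and Ehhadh because it had the deepest decrease among the peroxisomal genes of the set. Fabp1 was chosen because it held the only match of the set to the loosened receptor motif. Each sequence is the 150 bases before the RefSeq start on GRCm38.p6, 5′ to 3′ on the strand of the gene. Capitals mark the motif match.
Acaa1a (chr9:119341144-119341293, plus strand): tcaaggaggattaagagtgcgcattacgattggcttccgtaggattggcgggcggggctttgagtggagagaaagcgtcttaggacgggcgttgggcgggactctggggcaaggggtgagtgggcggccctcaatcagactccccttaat
Acaa1b (chr9:119157094-119157243, minus strand): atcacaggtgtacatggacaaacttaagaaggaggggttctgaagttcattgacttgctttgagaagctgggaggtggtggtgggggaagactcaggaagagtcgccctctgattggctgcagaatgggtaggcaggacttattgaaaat
Ehhadh (chr16:21787835-21787984, minus strand): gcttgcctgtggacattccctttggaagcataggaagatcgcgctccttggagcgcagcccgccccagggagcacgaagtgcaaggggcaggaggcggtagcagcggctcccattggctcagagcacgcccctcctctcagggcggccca
Fabp1 (chr6:71199729-71199878, plus strand): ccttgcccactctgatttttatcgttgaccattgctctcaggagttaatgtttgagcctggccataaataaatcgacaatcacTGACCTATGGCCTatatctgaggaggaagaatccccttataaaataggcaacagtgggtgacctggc
Acaa1a and Acaa1b had the same base at 46 of these 150 positions without gaps. This count was not set against unrelated sequences, so it is no measure of likeness between the paralogs. Windows of 250 bases before to 50 after the start were held for 46 of the 54 genes, and 4 motifs were searched on both strands. The direct repeat bound by PPAR and its partner, AGGTCANAGGTCA, was in 0 of 46 windows and in 0.0481% of the 27025 genes with a window. With 1 free base in each copy, AGGNCANAGGNCA, the match was in Fabp1 alone, on the minus strand with its first base at -67, and in 0.451% of all genes. The element TCAAGGTCA of estrogen-related receptors was in 0 of 46 (0.466% of all genes). The HNF4 element CAAAGTCCA was in Abcd3 (0.555% of all genes). The 2 direct repeats overlap by construction. A match is a description of letters near the start, and distal elements were not searched.

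Oxidases and catalase act at the entry of the peroxisomal cycle, where oxidation yields hydrogen peroxide. Cat, the catalase that removes it, was at 383, 279, 285 and 359 FPKM in the sham mice and 89.6 to 196 FPKM in the AAN mice (median 102). Every AAN mouse was below every sham mouse (log2 fold change -1.53, standard error 0.22, adjusted p = 0.000116 from limma). Acox2, an oxidase of branched chains and bile acid intermediates, was at 14.3, 6.85, 7.32 and 14.2 FPKM in the sham mice and 2.36 to 6.63 FPKM in the AAN mice (median 3.04), without overlap (log2 fold change -1.53, standard error 0.34, adjusted p = 0.00205 from limma). Acox3, also an oxidase of branched chains, passed the adjusted p under 2-fold (-0.82), and was called lower after the median of ratios (-1.58). Crot, which makes carnitine esters of shortened chains for export, was at 44.7, 31.8, 25.97 and 45.9 FPKM in the sham mice and 14.9 to 23.7 FPKM in the AAN mice (median 16.8), again without overlap (log2 fold change -1.05, standard error 0.20, adjusted p = 0.000754 from limma). It was under 2-fold without B607 or H249, at -0.94 in the latter case. Pex11a, a factor of peroxisome division that PPARA induces, was at 10.6, 9.38, 9.13 and 9.21 FPKM in the sham mice and 3.72 to 7.84 FPKM in the AAN mice (median 5.303). All 6 AAN mice were below the sham mice, with a change under 2-fold as deposited (log2 fold change -0.88, standard error 0.20, adjusted p = 0.00284 from limma). Pex11a was called lower with quantile normalization (-1.54) and under the median of ratios (-1.63). Hsd17b4, the other bifunctional enzyme, which serves branched and very long chains, was at 69.5, 31.4, 34.2 and 45.95 FPKM in the sham mice and 20.2 to 57.8 FPKM in the AAN mice (median 36.1), with overlap (log2 fold change -0.35, standard error 0.31, adjusted p = 0.340 from limma). Decr2 (15.95 to 18.95 FPKM in sham and 12.8 to 24.9 FPKM in AAN mice) and Eci2 (7.09 to 12.95 FPKM in sham and 7.37 to 10.8 FPKM in AAN mice), which handle unsaturated chains, had values of -0.040 and -0.15 and did not pass either. Decr2, Eci2, Acaa1a and Hsd17b4 were above 0 when all mice were set to the same FPKM total, at 0.32, 0.21, 0.29 and 0.016, and below 0 after the median of ratios, at -0.80, -0.90, -0.83 and -1.11, where Hsd17b4 was called lower.

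Of the transporters of the peroxisomal membrane, Abcd2 was called higher and Abcd3 was not called. Abcd3, an importer of branched and dicarboxylic acyl-CoA, was at 38.5, 18.3, 20.7 and 31.2 FPKM in the sham mice and 7.91 to 31.7 FPKM in the AAN mice (median 15.2), with B614 inside the sham range, and missed the adjusted limit (log2 fold change -0.86, standard error 0.35, adjusted p = 0.0525 from limma). Abcd3 was called lower without B614 (-1.09), with quantile normalization (-1.26) and under the median of ratios (-1.62), and was at -0.67 without B607 (adjusted p = 0.143 from limma). Abcd2, an importer of very long chains, was at 0.0310, 0, 0.0330 and 0.0329 FPKM in sham mice, at most 3.2 fragments, and at 0.346 to 0.809 FPKM in AAN mice (median 0.666), which is 32.3 to 78.5 fragments at most. All 6 AAN mice were above the sham mice (adjusted p = 6.15e-06 from limma). No fold is given because the sham values are at the detection limit. The fitted log2 value was 2.51 with the pseudocount of 0.1, 0.66 with 1 and 4.37 with 0.01.

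Differences between 2 genes of the set within a mouse do not depend on the scaling between mice, apart from the pseudocount. The 25 pairs of related genes were chosen with earlier results of these data known, and the p-values do not cover that choice. Of these pairs, 10 differed between the groups at an adjusted p of at most 0.05 over the 25 pairs, by an exact permutation test (two-sided, all 210 ways to split the mice, smallest possible p 0.00476). In 8 of the 10 the groups did not overlap. The largest decrease was that of Acsl1 minus Acsl5, by -2.83 (standard error 0.47, exact permutation p = 0.00476, adjusted p = 0.0149). Ehhadh fell against Hsd17b4 by 2.44 (standard error 0.30, exact permutation p = 0.00476, adjusted p = 0.0149), and Slc27a2 against Slc27a1 by 2.18 (standard error 0.15, exact permutation p = 0.00476, adjusted p = 0.0149). Acaa1a rose against Acaa1b by 2.004 (standard error 0.27, exact permutation p = 0.00476, adjusted p = 0.0149). The mitochondrial reductase Decr1 differed from the peroxisomal Decr2 by -1.09 (standard error 0.077, exact permutation p = 0.00476, adjusted p = 0.0149). In the sham mice this difference was 1.41 to 1.501, and in AAN mice 0.045 to 0.53, so even B614 lay outside the sham range. Within the shuttle, Cpt2 changed against Slc25a20 by -0.95 (standard error 0.15, exact permutation p = 0.00476, adjusted p = 0.0149). Fabp3 changed against Fabp4 by -1.46 (standard error 0.24, exact permutation p = 0.00476, adjusted p = 0.0149). The remaining pair without overlap, Abcd2 minus Abcd3, rests on sham values of Abcd2 at the detection limit, and it did not pass with a pseudocount of 1 (adjusted p = 0.0595 in the exact permutation test). Acadm also fell against Acadvl, by 0.61 (standard error 0.17, exact permutation p = 0.00952, adjusted p = 0.0265), and Acaa2 against Acaa1a, by 1.15 (standard error 0.24, exact permutation p = 0.0190, adjusted p = 0.0476). Acaa2 minus Acaa1a lost its call when any of the mice B634, B636, H249, A483, B639, B642 or B666 was left out, with adjusted p-values of 0.0541 to 0.0595 in the exact permutation test, and Acadm minus Acadvl without B634 or H249.

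The other 15 pairs did not pass. Among these, Cpt1a minus Cpt2 was 0.99 (standard error 0.37, exact permutation p = 0.0238, adjusted p = 0.0541) and Ppara minus Pparg -2.68 (standard error 0.95, exact permutation p = 0.0286, adjusted p = 0.0595), where B607 and B614 stood apart. Cpt1a minus Cpt2 passed without B607 (1.303) or B630 (1.101) and with a pseudocount of 0.01 (0.996), with adjusted p-values of 0.0298, 0.0361 and 0.0496 in the exact permutation test. Without B614 the difference of Ppara and Pparg was -3.24 and passed (adjusted p = 0.0180 in the exact permutation test). Neither pair of subunits of the same complex passed. Etfa minus Etfb was 0.064 (standard error 0.32, exact permutation p = 0.843, adjusted p = 0.843), and Hadha minus Hadhb was 0.40 (standard error 0.24, exact permutation p = 0.0905, adjusted p = 0.133). The values ran from -1.36 to -0.35 in sham and -1.52 to -0.049 in AAN mice for Etfa minus Etfb, and from 2.16 to 3.12 and 2.79 to 3.42 for Hadha minus Hadhb, a spread within which a smaller difference would not be seen.

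**Figure D4:**
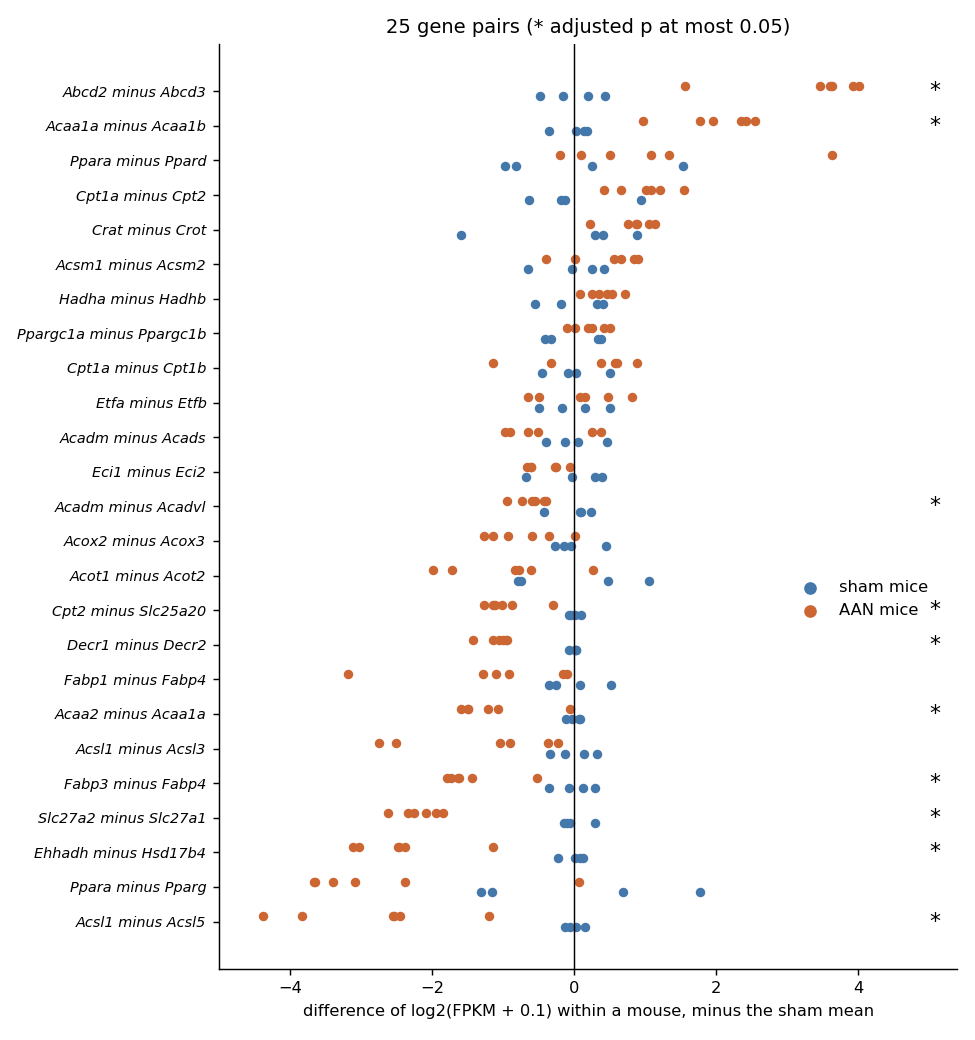
Within-mouse difference of log2(FPKM + 0.1) for the 25 gene pairs, each minus its mean in the sham mice, with blue points for the 4 sham and orange points for the 6 AAN mice. Asterisks mark the 10 pairs with an adjusted p of at most 0.05, and in Decr1 minus Decr2 the sham points lie close together, apart from the AAN points.

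B614 stood apart from the other AAN mice in many genes. It had the highest value of the 6 AAN mice in 43 of the 54 genes, and 6 of the 20 genes called lower (Acsl1, Acadm, Acad10, Hadh, Acaa2 and Etfa) reached the range of the sham mice in B614, against 0 of 20 in each of the other 5 AAN mice. Without B614, 24 genes were called lower, including the same 20, and 4 higher. Among sham mice, B607 was the highest in 33 genes and B634 the lowest in 36. Mitochondrially encoded genes held 39.5% of the FPKM total in B607 and 61.4% in B634, the lowest and the highest share of the sham mice. Without B607, 16 genes were called lower. Leaving out both B607 and B614, an alternative chosen after seeing the data, gave 20 lower and 4 higher.

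Most of the listed proximal tubule markers fell together with the set. Of 15 markers, 11 were called lower and 0 higher, where 3.43% and 35.8% of all genes were. The 4 not called were Slc5a12 (log2 fold change 0.12), Slc4a4 (-0.38), Slc5a2 (-0.60) and Aqp1 (-0.995). After the median of ratios 14 of the 15 were called lower, where 10.7% of all genes were, and Slc5a12 was at -0.63 without a call. The summed level of the 15 markers was 22238 to 36573 FPKM in sham and 1301 to 3983 FPKM in AAN mice. Kap, an abundant androgen-regulated proximal tubule transcript, made up most of these sums in sham mice (16685 to 33359 FPKM in sham and 303 to 2204 FPKM in AAN mice), and the median log2 fold change of the 15 markers was -1.87. None of these defining markers was at 0 in a sham mouse, and the organic anion transporter Slco1a1 was listed at 0 in the lowest AAN mouse. Slc22a6, an organic anion transporter, was at 229.8 to 409 FPKM in sham and 7.15 to 117 FPKM in AAN mice. The mean log2 level of the markers was 6.91 to 7.76 in sham mice, 4.32 to 4.61 in 5 AAN mice and 6.26 in B614. That of the 54 genes was 3.78 to 4.64 in sham mice, 3.15 to 3.56 in these 5 AAN mice and 4.26 in B614. All 8 injured tubule markers and all 7 fibroblast markers were called higher, where 35.8% of all genes were. The sums of the injured tubule and fibroblast markers were 148 to 245 and 16.2 to 22.2 FPKM in sham mice, and 1458 to 3662 and 116 to 263 FPKM in AAN mice. In B614 the injured tubule, macrophage and fibroblast sums were the lowest of the AAN mice. Of 8 markers of the thick limb, distal tubule and collecting duct, 1 was called lower (Pvalb) and 0 higher, where 3.43% and 35.8% of all genes were. The sums of these 8 markers were 731 to 1989 FPKM in sham and 344 to 2607 FPKM in AAN mice, highest in B614. The part of cell composition in the decreases was not tested.

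**Figure D5:**
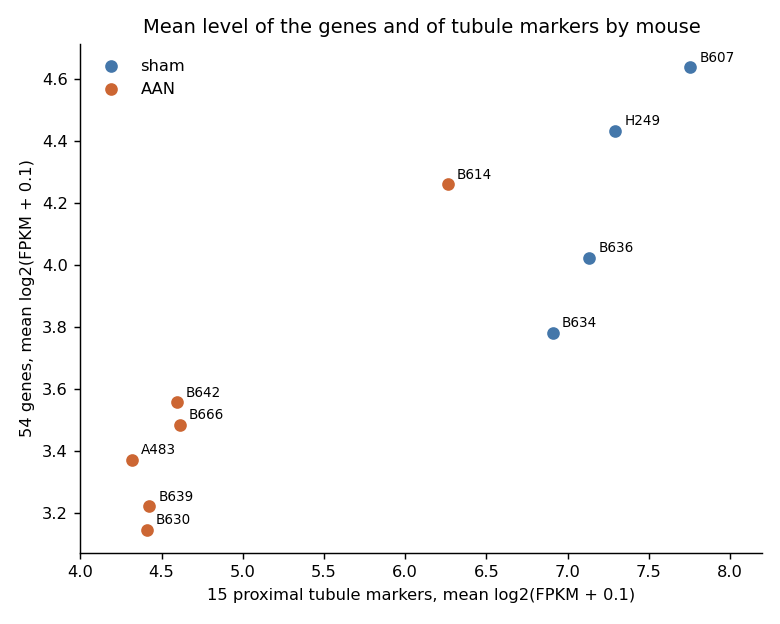
Mean log2(FPKM + 0.1) of the 54 genes (vertical axis) against that of 15 proximal tubule markers (horizontal axis), 1 point a mouse, blue for sham and orange for AAN. The AAN mouse B614, at 6.26 and 4.26, lies between the other 5 AAN mice and the sham mice on the horizontal axis and within the sham range on the vertical one.

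Genes of the same pathways outside the set were read from 4 further lists. Over all genes tested the call was lower for 3.43% and higher for 35.8%, which is the share to set beside each count below. Of 20 other mitochondrial acyl-CoA and ketone body enzymes, 7 were called lower and 1 higher (median log2 fold change -0.83, against 0.75 for all genes tested). Acat1, the thiolase of ketone body and isoleucine metabolism, was at 102 to 191 FPKM in sham and 25.4 to 91.2 FPKM in AAN mice (-1.83), Hibadh, of valine breakdown, at 41.3 to 56.6 FPKM in sham and 14.05 to 24.2 FPKM in AAN mice (-1.58), and the ketone body dehydrogenase Bdh1 at 10.8 to 22.9 FPKM in sham and 4.57 to 7.77 FPKM in AAN mice (-1.43). The acyl-CoA synthetase Acsf2 rose (2.41 to 4.65 FPKM in sham and 6.62 to 13.3 FPKM in AAN mice, 1.14), a value of 0.39 after the median of ratios. Of 36 other peroxisomal genes, 11 were called lower and 0 higher, with a median of -0.23. The 14 Pex genes among them had 0 called in either direction and a median of 0.014, and 1 passed the adjusted p. After the median of ratios 2 of these 14 were called lower, where 10.7% of all genes were, with a median of -0.74. Nudt19, a peroxisomal CoA diphosphatase, was at 178 to 233 FPKM in sham and 24.3 to 37.1 FPKM in AAN mice (-2.86). Amacr, a racemase of branched acyl-CoA, was at 56.7 to 109 FPKM in sham and 14.97 to 34.1 FPKM in AAN mice (-2.06), and the alpha-oxidation enzyme Phyh at 198 to 260.2 FPKM in sham and 79.3 to 161 FPKM in AAN mice (-1.24).

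Of 13 other PPARA target genes tested, 7 were called lower and 1 higher (median -1.31), where 3.43% of all genes were called lower and 35.8% higher. Members of cytochrome P450 family 4, which hydroxylate fatty acids, were among the 7. Cyp4b1 was at 427 to 1430.3 FPKM in sham and 24.9 to 243 FPKM in AAN mice (-3.53), Cyp4a10 at 85.8 to 141 FPKM in sham and 7.001 to 69.7 FPKM in AAN mice (-2.597) and Cyp4a31 at 63.3 to 76.5 FPKM in sham and 10.6 to 37.5 FPKM in AAN mice (-1.92). Txnip, a regulator of glucose uptake and redox state, rose with 11.7 to 22.4 FPKM in sham and 32.8 to 99.6 FPKM in AAN mice (1.42), and 0.66 after the median of ratios. The other 5 were called in neither direction. Plin2 was at 0.96 (adjusted p = 0.0207 from limma, under 2-fold), Angptl4 at 1.13 (adjusted p = 0.0745 from limma) and Pdk4 at 0.14. Mgll was at -0.59 and Aldh3a2 at -0.69 (adjusted p = 0.0324 from limma, under 2-fold). After the median of ratios Plin2, Angptl4 and Pdk4 were at 0.20, 0.38 and -0.60, and Aldh3a2 was called lower (-1.45). Of 20 genes of fatty acid synthesis and storage, 2 were called lower and 2 higher, where 3.43% and 35.8% of all genes were, and the median was 0.20, or -0.55 after the median of ratios. Mogat1, an acyltransferase of triglyceride synthesis, was at 30.6 to 35.7 FPKM in sham and 2.46 to 9.76 FPKM in AAN mice (-3.15), and the elongase Elovl5 at 9.397 to 14.7 FPKM in sham and 17.99 to 26.5 FPKM in AAN mice (1.001, and 0.24 after the median of ratios). No test of the difference between the lists was made.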

How the data were processed

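The authors mapped reads to the mouse genome (mm10) with HISAT2 and used StringTie to obtain FPKM per gene, per the labels and the study's methods. The deposited FPKM, 1 value per gene and mouse for 21792 Ensembl genes, carry no further normalization named in the sources used here. The authors tested counts with edgeR. Counts are not analysed here, so limma 3.58.1 in R 4.3.3 (trend and robust, two-sided) was run on log2(FPKM + 0.1) wherever the mean over mice reached 0.1 FPKM, with Benjamini-Hochberg adjustment over the 17129 genes so tested. A call needed an adjusted p up to 0.05 together with a 2-fold change. The fold change understates low genes. The 0.75 median log2 shift of all genes was not removed.

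The 54 genes, the lists and the pairs were chosen with earlier results of these data known. All 54 genes are named. From each of the 4 pathway lists, up to 3 of the largest decreases and up to 2 of the largest increases were named, among called genes with groups that did not overlap and a higher group averaging 5 FPKM or more. The 5 tested PPARA targets that were not called are named as well. Symbols and positions came from the GENCODE annotation of GRCm38 (21665 of 21792 IDs matched), promoters from RefSeq. Strand use and the sharing of fragments between overlapping genes (19 of the 54 overlap another measured gene) are not given in the sources used here. Depth was recovered from genes with 1 transcript, where 94.7% to 96.9% of values under 0.3 FPKM were whole fragments within 0.05. For genes with several transcripts only an upper limit of fragments is given, and these limits cover counting error only. Within-mouse differences of 25 pairs used an exact permutation test (scipy 1.17.1). Both tests were tested on simulated data. Alternatives tried were a pseudocount of 1 or 0.01, a filter at a mean of 1 FPKM or none, 3 rescalings (median of ratios, quantile, same FPKM total), mitochondrially encoded genes left out, limma without trend or robust, no fold limit, each mouse left out, and the mice with B tags alone. Where mitochondrially encoded genes were left out, all mice were also set to the same FPKM total of the remaining genes. Of the 3 sham and 5 AAN mice with B tags the batch, if any, is not stated.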

Additional observations from a re-analysis of the deposited data

Results flagged for a closer look

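Single mice that stood apart within their group were sought with Dixon's criterion (gap to the nearest value over the whole range, 95% limit). Among 108 groups of values, 54 genes in sham and in AAN mice, 26 held such a mouse, where chance gives about 1 in 20 groups, or 5.4. B614, of the AAN group, was this mouse in 22 of the 26, and the groups are not independent because 1 mouse gives many genes. In all 22 its value was the highest of the AAN mice.

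Among regulators, uptake and activation, B614 had, in FPKM and with the range of the other 5 AAN mice in parentheses, Ppara 5.24 (0.415 to 1.10), Ppargc1a 9.57 (3.54 to 5.24), Ppargc1b 2.17 (0.678 to 0.957), Slc27a2 267 (165 to 200.3), Acsl1 20.1 (1.88 to 7.56), Acsm2 122 (30.2 to 52.9) and Acot1 30.7 (5.71 to 14.8). In the carnitine shuttle and mitochondrial beta-oxidation they were Cpt1a 142 (24.6 to 57.2), Cpt2 20.2 (7.55 to 11.8), Acadm 44.9 (18.7 to 22.5), Acadvl 47.8 (22.3 to 31.7), Acad10 6.51 (1.47 to 2.54), Acad11 17.6 (2.92 to 7.23), Acad12 4.32 (1.94 to 2.52), Hadhb 2.98 (0.560 to 1.17) and Acaa2 174 (43.0 to 71.1). In the peroxisome they were Acox3 10.2 (5.50 to 7.08), Ehhadh 98.4 (14.5 to 25.9), Acaa1b 68.0 (18.1 to 26.1), Crot 23.7 (14.9 to 17.5), Cat 196 (89.6 to 112) and Abcd3 31.7 (7.91 to 15.4).

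The sham mouse B607 had 6.24 FPKM of Ppara, where the other sham mice had 0.863 to 1.09, and 10.6 FPKM of Pex11a, where they had 9.13 to 9.38. The sham mouse B634 had 58.9 FPKM of Acsm1 (others 80.5 to 82.8) and was listed at 0 for Abcd2 (others 0.0310 to 0.0330). Pex11a remained under 2-fold without B607, and Acsm1 and Abcd2 kept their calls without B634. The causes were not tested.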

How the results depend on the processing

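Scaling decided most. Of the 54 genes, 20 lower became 37 with the median of ratios, 34 with quantile normalization, 11 at the same FPKM total and 41 after the median of ratios without B614 (chosen after seeing the data). The 4 higher became 2, 1, 4 and 2 under these, and 2 with a pseudocount of 1 or a mean of at least 1 FPKM, where fewer genes are tested. Of all genes, 588 lower became 1810, 2085, 330 and 1974, and 1027 without a fold limit. The 6126 higher became 3193, 2487, 8896 and 3346, and 4025 with a mean of at least 1 FPKM, 2909 with a pseudocount of 1 and 9482 without a fold limit. With each mouse left out, 16 to 24 of the 54 genes were lower and 4 higher, and 524 to 703 of all genes were lower and 5488 to 6684 higher. With B tags alone 15 of the 54 were lower and 4 higher, and Acsl1, Acaa2, Acad10, Etfa and Crot lost the call. Ppard, Slc27a2, Cd36, Acsm1, Acsm2, Acsm3, Acadm, Acox2, Ehhadh, Acaa1b and Cat were called lower under every alternative. The cause of the other changes was not tested.

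Directions turned in genes that were not called. After the median of ratios the log2 fold changes were Ppargc1a -0.74, Slc27a1 -0.22, Fabp1 -0.53 and Acot2 -0.73, and without B614 as well -0.92, -0.24, -0.63 and -0.76. After quantile normalization Ppargc1a was at -0.75, Fabp1 -0.80 and Acot2 -0.55. At the same total, Ppargc1b was at 0.12, Fabp3 0.22, Acsl3 0.075, Cpt1a 0.0044, Crat 0.13, Hadha 0.36, Hsd17b4 0.016, Acaa1a 0.29, Decr2 0.32 and Eci2 0.21. Hadha was at 0.018 without mitochondrially encoded genes, with all mice set to the same total of the remaining genes. With B tags alone Ppargc1a was at -0.022, Crat 0.15, Hadha 0.13, Decr2 0.021 and Cpt1a minus Cpt1b -0.072. Without B607 and B614 (chosen after seeing the data) Ppargc1a was at -0.053, Fabp1 -0.13, Acot2 -0.032 and Hadha 0.080. With each mouse left out the ranges were Ppargc1a -0.18 to 0.13, Ppargc1b -0.43 to 0.048, Fabp1 -0.028 to 0.55, Acot2 -0.026 to 0.089, Crat -0.82 to 0.025, Hadha -0.24 to 0.29, Hadhb -0.72 to 0.071, Acaa1a -0.18 to 0.031, Decr2 -0.15 to 0.046, Eci2 -0.28 to 0.0025 and Etfa minus Etfb -0.10 to 0.23.

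Of the 25 pairs, 10 passed, 8 to 12 with a mouse left out, and 0 with B tags alone, where 3 against 5 mice allow no exact p below 0.0179. No paired analysis was possible because no tag occurs in both groups. At the depths here the sham values of Abcd2 and Pparg rest on few fragments.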

Other observations

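Several of the 54 genes lie beside a relative on the same chromosome of GRCm38. Acsm2, Acsm1 and Acsm3 follow each other on the plus strand of chromosome 7 between 119554340 and 119787513, and all 3 were called lower, with log2 fold changes of -1.97, -1.54 and -3.81. Acad12 and Acad10 are 2.09 kilobases apart on the minus strand of chromosome 5, with -0.77 and -1.23. Acot2 and Acot1, 15.6 kilobases apart on chromosome 12, had 0.023 and -0.92, and Acaa1b and Acaa1a, 183 kilobases apart on chromosome 9 and on opposite strands, had -2.07 and -0.068. Hadha and Hadhb, on opposite strands of chromosome 5, had -0.0033 and -0.40. After the median of ratios Acad12 and Acad10 were both called lower as well. No test of position was made.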
